A study of Mus musculus with 11 samples.

Results

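The genes described here are 10 members of the cytokine signalling pathway that runs from Janus kinases to the nucleus, namely the kinases *Jak1*, *Jak2*, *Jak3* and *Tyk2*, the transcription factors *Stat3*, *Stat5a*, *Stat5b* and *Stat6*, and the inhibitors *Socs1* and *Socs3*. They were taken by symbol from the 35814 gene symbols of the series, and each has 1 row. RNA sequencing was performed on CD4+ T cells of mouse kidney on day 2 after ischemia–reperfusion injury (IRI), with 1 library per mouse from 3 CD4cre, 5 CD4IKK1Δ and 3 CD4NIKΔ animals. All mice were males on a C57BL/6 background, 8 to 12 weeks old, whose renal pedicles were both clamped for 45 min, and no uninjured animals are among the 11 libraries. All groups carry a Cre recombinase driven by the CD4 promoter, so that deletion reaches every T cell in which this promoter has been active. CD4cre animals, given as WT in the labels, have no floxed kinase gene, CD4IKK1Δ animals carry a floxed *Chuk* gene (IKK1), and CD4NIKΔ animals carry a floxed *Map3k14* gene (NIK). A SMARTer kit was used to amplify the RNA of the sorted cells.

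Cytokine receptors of T cells have no enzymatic activity of their own and carry JAK kinases on their cytoplasmic tails. After binding of a ligand the kinases phosphorylate the receptor and the STAT proteins that dock there, and the STATs form dimers, enter the nucleus and bind DNA. JAK1 and JAK3 serve receptors with the common gamma chain (IL-2, IL-4, IL-7, IL-15 and IL-21), JAK2 and TYK2 serve the IL-12 and IL-23 receptors, and JAK1 is used with TYK2 or JAK2 by interferon and gp130 receptors. STAT3 is activated by IL-6, IL-21 and IL-23 and is required for Th17 cells, STAT5A and STAT5B transmit IL-2 and IL-7 signals, and STAT6 transmits IL-4 signals. SOCS1 and SOCS3 are induced by STATs and inhibit the kinases or the receptors that activated them.

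*Stat5b*, *Stat5a* and *Stat3* lie next to each other on chromosome 11 of GRCm39, in a segment from 100671556 to 100830450, and *Stat5a* and *Stat3* run toward each other and overlap at their ends, where reads counted without strand cannot be told apart. *Socs3* is on the same chromosome from 117856905 to 117860898, and *Socs1* is on chromosome 16 from 10600104 to 10603875. The bases before the start site of both SOCS genes are shown because these genes are textbook targets of the STATs measured beside them. The sequences are from RefSeq on the build GRCm38.p6, 250 bases long, read 5′ to 3′ on the minus strand, and the capitals mark the STAT core motif TTCNNNGAA.
Socs3, chr11:117969367-117969616: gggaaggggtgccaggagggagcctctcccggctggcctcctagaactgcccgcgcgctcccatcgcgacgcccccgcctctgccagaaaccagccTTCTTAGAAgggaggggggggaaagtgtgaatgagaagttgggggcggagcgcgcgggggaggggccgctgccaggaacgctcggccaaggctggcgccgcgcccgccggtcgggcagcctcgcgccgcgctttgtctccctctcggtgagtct
Socs1, chr16:10785537-10785786: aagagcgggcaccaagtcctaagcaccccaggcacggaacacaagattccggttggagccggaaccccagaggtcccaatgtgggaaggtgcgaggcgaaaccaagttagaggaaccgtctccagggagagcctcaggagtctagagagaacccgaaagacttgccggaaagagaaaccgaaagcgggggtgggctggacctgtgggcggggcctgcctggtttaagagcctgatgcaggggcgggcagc
The motif in the *Socs3* sequence begins 154 bases before the start site. Windows from 250 bases before to 50 bases after the start were found for all 10 members (12 windows), and *Socs3* was the 1 member with TTCNNNGAA, a motif that reads the same on both strands. The longer spacing TTCNNNNGAA was in 0 members. Over all mouse genes, 8.3% of 32851 such windows held TTCNNNGAA and 6.95% held TTCNNNNGAA. These matches describe letters only.

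The libraries held between 15751632 and 25737046 estimated counts, so that 3 counts, used as the limit that a count of 0 allows, equal 0.115 to 0.212 CPM (counts scaled to a common library size, normalised by edgeR's TMM factors). These limits hold for counting error alone, because reads were amplified and no molecular identifiers mark their origin. *Chuk* had 16.3 to 33.3 CPM in CD4cre libraries and 15.3 to 26.5 CPM in libraries labelled CD4IKK1Δ (log2 fold change −0.11, FDR 0.921), and *Map3k14* had 14.8 to 19.6 CPM in CD4cre libraries and 12.8 to 30.8 CPM in libraries labelled CD4NIKΔ (log2 fold change 0.30, FDR 0.575, both from edgeR's quasi-likelihood test). Neither targeted gene passed the test in the group labelled as its knockout, and counts given per gene symbol do not resolve deleted exons; groups are named below by their labels. *Map3k14* was below all CD4cre libraries in every CD4IKK1Δ library (means of 5.98 and 17.9 CPM, log2 fold change −1.58, FDR 0.148 from edgeR's test and adjusted p 0.0155 from DESeq2). T cell receptor constant-region transcripts had 12558 to 35820 counts in CD4cre libraries, 60124 to 111648 in CD4NIKΔ libraries and 41, 868, 11413, 5277 and 5644 counts in CD4IKK1Δ replicates 1 to 5, so that replicates 1 and 2 of this group held few T cell transcripts. The table lists *Polr2a*, which every cell transcribes, at 0 in 7 of 11 libraries and *Pgk1* at 0 in 3. A value of 0 is therefore given here as listed at 0 and not as absence. Whether the value of a symbol holds the reads of all its transcripts could not be settled from the table, a limit for every level given here, those of *Chuk* and *Map3k14* included.

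The 10 genes were compared between the 3 genotypes to ask whether the deletion of either kinase of the non-canonical NFκB pathway goes with a change in JAK–STAT transcripts of renal CD4+ T cells after IRI. Between CD4IKK1Δ and CD4cre, 8 of 9 members tested had lower estimates in CD4IKK1Δ libraries and 1, *Jak2*, had a higher estimate but passed the expression filter through these libraries alone. Of the 9, 0 passed an FDR under 0.05, as did 0.0% of the 15653 genes tested. In all 5 CD4IKK1Δ libraries, *Stat3*, *Stat5a*, *Stat5b*, *Socs1* and *Socs3* were below all 3 CD4cre libraries, a pattern held by 8.44% of all genes tested. At an unadjusted p under 0.05, 5 members had lower values, as did 8.91% of all genes. DESeq2 called 5 members lower at an adjusted p under 0.05 (*Jak1* 0.0426, *Stat3* 0.0142, *Stat5a* 0.00029, *Stat5b* 0.00717 and *Socs1* 0.0263), where it called 8.75% of 11585 genes in either direction, so that the 0 calls of the main test depend on the tool. The median log2 fold change of the 9 members was −1.25, beside 0.02 over all genes tested. It was −2.04 for 15 T cell markers, −1.21 for 71 other pathway genes and 0.36 for 9 neuronal markers, all described below. Since these are bulk samples, fewer T cells in a library and fewer transcripts per T cell cannot be told apart.

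In CD4NIKΔ libraries all 9 members tested had higher estimates than in CD4cre libraries, and 3 rose at an FDR under 0.05, *Jak1*, *Jak3* and *Stat3*. DESeq2 called 6 (also *Stat5a*, *Socs1* and *Tyk2*, with adjusted p-values of 0.031, 0.0217 and 0.0132), where it called 30.4% of 16683 genes. Over all 15209 genes tested, 21.1% were called in either direction and 12.1% were called higher. Of the members, 7 were higher in all 3 CD4NIKΔ libraries than in every CD4cre library, as were 22.9% of all genes. *Stat6* is among the 9 and the 7 but passed the expression filter only with the CD4NIKΔ libraries, in which it is higher. It therefore adds nothing to either count. The median log2 fold change of the members was 1.12 beside −0.02 over all genes. It was 2.11 for the T cell markers, 1.41 for the other pathway genes and −1.18 for the neuronal markers. Only *Jak3* kept its call when each of the 6 libraries was left out in turn. The calls of *Jak1* and *Stat3* were both lost without CD4cre replicate 2 or 3 or without CD4NIKΔ replicate 2 or 3, with FDRs of up to 0.0975 and 0.130. In the fit with all 11 libraries only *Jak1* was called, beside 7.1% of all genes called higher (log2 fold change 1.60, FDR 0.0148), and *Jak3* (1.93, FDR 0.135) and *Stat3* (1.14, FDR 0.111) were not. Leaving out 1 library also added calls, which are given with each gene.

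CD4IKK1Δ and CD4NIKΔ libraries were compared directly. Of 10 members, 9 were lower in CD4IKK1Δ libraries at an FDR under 0.05, all of them by more than 2-fold and all without overlap between the groups, and *Jak2* was the exception. *Stat6* is among the 9 but passed the expression filter through the CD4NIKΔ libraries, in which it is higher, so that 8 members carry the count. In this comparison 42.2% of 16546 genes were called, 22.0% as lower and 33.3% in either direction by more than 2-fold, and 24.4% of all genes had every CD4IKK1Δ library below every CD4NIKΔ library. The median log2 fold change of the 10 members was −2.82 beside 0.06 over all genes. It was −4.07 for the T cell markers, −2.88 for the other pathway genes and 1.54 for the neuronal markers. This comparison used all 11 libraries, and the 2 comparisons with CD4cre share the same 3 control libraries.

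**Figure D1:**
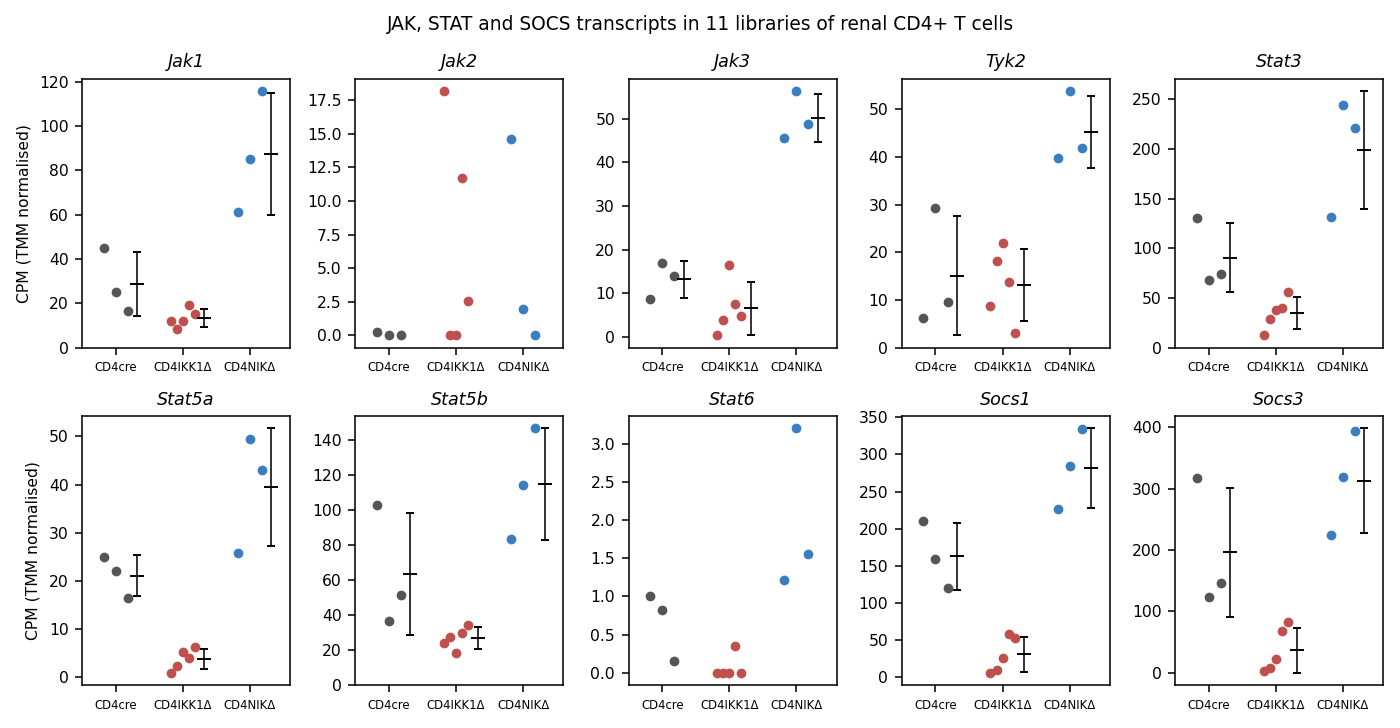
CPM of each gene on a linear axis in every library (points, in the order of the replicate numbers), with the mean and SD of the group in black, left out for *Jak2* and *Stat6*, which are listed at 0 in several libraries. The CD4NIKΔ points lie above all CD4IKK1Δ points in every panel except that of *Jak2*.

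**Figure D2:**
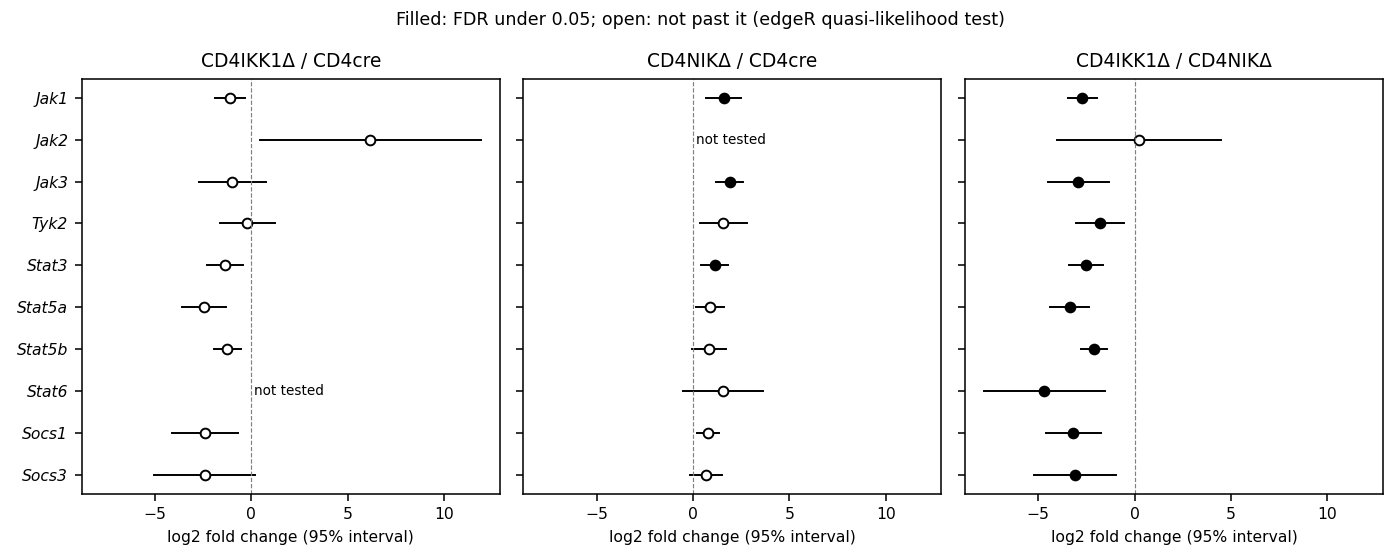
Log2 fold changes (points) with 95% intervals (lines) in the 3 comparisons from edgeR's quasi-likelihood test, filled where the FDR is under 0.05. Filled points number 0, 3 and 9 from left to right, and the genes removed by the expression filter are written as not tested.

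Among the kinases, *Jak1* had 1165, 518 and 327 counts in CD4cre libraries, 186, 164, 215, 382 and 332 counts in CD4IKK1Δ libraries and 1107, 1731 and 1641 counts in CD4NIKΔ libraries. These correspond to 28.8 ± 14.5 CPM (SD, n = 3), 13.4 ± 3.88 CPM (SD, n = 5) and 87.4 ± 27.5 CPM (SD, n = 3). All CD4NIKΔ libraries were above all others, whereas the highest CD4IKK1Δ library (19.0 CPM) exceeded the lowest CD4cre library (16.4 CPM). *Jak1* rose 3.00-fold from CD4cre to CD4NIKΔ (log2 fold change 1.59, standard error 0.39, FDR 0.0272 from edgeR's test). It was 6.54-fold lower in CD4IKK1Δ than in CD4NIKΔ libraries (−2.71, standard error 0.34, FDR 0.000134). The estimate between CD4IKK1Δ and CD4cre was −1.11 (95% interval −1.91 to −0.32, FDR 0.174).

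*Jak3*, the kinase that binds the common gamma chain and is largely confined to blood cells, had 224, 348 and 280 counts in CD4cre libraries, 6, 73, 291, 152 and 107 in CD4IKK1Δ libraries and 827, 1145 and 691 in CD4NIKΔ libraries. CD4IKK1Δ replicate 1, the library with 41 T cell receptor counts, was the lowest by far with 0.388 CPM, and replicate 3, with the most T cell receptor counts of its group, reached 16.5 CPM and thus the CD4cre range of 8.62 to 16.9 CPM. The CD4NIKΔ libraries lay between 45.7 and 56.3 CPM and did not overlap with any other library. *Jak3* rose 3.76-fold from CD4cre to CD4NIKΔ (log2 fold change 1.91, standard error 0.31, FDR 0.00811 from edgeR's test). The CD4IKK1Δ libraries were 7.59-fold below those of CD4NIKΔ (−2.92, standard error 0.72, FDR 0.00675), and without CD4IKK1Δ replicate 3 the estimate was −3.59. Between CD4IKK1Δ and CD4cre the estimate of −0.99 had a 95% interval from −2.73 to 0.74 (FDR 0.591), and without CD4IKK1Δ replicate 3 it was −1.66.

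*Tyk2* had 162, 603 and 192 counts in CD4cre libraries, 134, 348, 388, 278 and 66 in CD4IKK1Δ libraries and 720, 1093 and 593 in CD4NIKΔ libraries. The first 2 groups overlapped (6.23 to 29.4 CPM and 2.98 to 22.0 CPM), and the CD4NIKΔ libraries were above both (39.8 to 53.8 CPM). Only the difference between CD4IKK1Δ and CD4NIKΔ passed the test (log2 fold change −1.78, standard error 0.57, FDR 0.0252 from edgeR's test), and this call was lost without CD4IKK1Δ replicate 1, without CD4NIKΔ replicate 2 and without CD4NIKΔ replicate 3 (FDR up to 0.078). CD4IKK1Δ and CD4cre differed by −0.20 (95% interval −1.60 to 1.21), an estimate that turned to 0.73 without CD4cre replicate 2. From CD4cre to CD4NIKΔ the estimate was 1.56 (0.35 to 2.78, FDR 0.0674), and without CD4cre replicate 2 it was 2.52 and passed the test (FDR 0.0165).

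*Jak2* behaved unlike the other kinases. It had 6, 0 and 0 counts in CD4cre libraries, 281, 0, 0, 235 and 57 in CD4IKK1Δ libraries and 264, 40 and 0 in CD4NIKΔ libraries, and was thus listed at 0 in 5 of 11 libraries spread over all groups. CD4IKK1Δ replicate 1 had the highest *Jak2* value of all libraries (18.2 CPM) and was alone the lowest library for 5 of the 10 members, and for *Stat6* it was 1 of 4 libraries listed at 0. The estimate between CD4IKK1Δ and CD4cre was 6.18 with a 95% interval from 0.46 to 11.9 (FDR 0.272 from edgeR's test). Without CD4cre replicate 1 all CD4cre libraries are at 0 and the fitted value was 9.96, which is no bound, and without CD4IKK1Δ replicate 1, 4 or 5 the gene did not pass the expression filter. The gene did not pass the expression filter between CD4NIKΔ and CD4cre, and CD4IKK1Δ and CD4NIKΔ differed by 0.23 (−4.02 to 4.48, FDR 0.936), with estimates from −0.63 without CD4IKK1Δ replicate 1 to 2.69 without CD4NIKΔ replicate 1. Among the kinases, annotated transcripts of *Jak1* share 1922 of 11821 stretches of 31 bases with *Raver2* and those of *Jak3* share 1017 of 8225 with *B3gnt3*, so that some reads could be assigned to either gene.

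Among the transcription factors, *Stat3* had 3392, 1391 and 1467 counts in CD4cre libraries, 191, 541, 671, 792 and 1252 in CD4IKK1Δ libraries and 2390, 4958 and 3132 in CD4NIKΔ libraries. The means were 90.6 ± 34.7 CPM (SD, n = 3), 34.9 ± 16.2 CPM (SD, n = 5) and 199 ± 59.2 CPM (SD, n = 3), and no 2 groups overlapped. CD4cre replicate 1 with 130 CPM and CD4NIKΔ replicate 1 with 132 CPM were neighbours at the boundary of their groups. *Stat3* rose 2.17-fold from CD4cre to CD4NIKΔ (log2 fold change 1.12, standard error 0.31, FDR 0.0393 from edgeR's test). It was 5.70-fold lower in CD4IKK1Δ than in CD4NIKΔ libraries (−2.51, standard error 0.40, FDR 0.000546). The estimate between CD4IKK1Δ and CD4cre was −1.38 (95% interval −2.30 to −0.45, FDR 0.161) and moved to −1.16 without CD4IKK1Δ replicate 1.

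*Stat5a* had 647, 452 and 328 counts in CD4cre libraries, 15, 47, 94, 80 and 138 in CD4IKK1Δ libraries and 469, 1005 and 609 in CD4NIKΔ libraries. In CPM these were 21.1 ± 4.29 (SD, n = 3), 3.79 ± 2.12 (SD, n = 5) and 39.5 ± 12.2 (SD, n = 3). All 5 CD4IKK1Δ libraries, at 6.22 CPM or less, were well below the lowest CD4cre library at 16.5 CPM, and *Stat5a* had the lowest FDR of the 9 members tested in this comparison (log2 fold change −2.47, 95% interval −3.62 to −1.33, FDR 0.0898 from edgeR's test). With leaving out each of the 8 libraries in turn the FDR was between 0.0703 and 0.412, and the estimate between −2.73 and −2.23. Toward CD4NIKΔ the difference was 10.4-fold (−3.37, standard error 0.47, FDR 0.000223), and it passed the test when each of the 8 libraries was left out in turn. CD4NIKΔ replicate 1 (25.9 CPM) was next to CD4cre replicate 1 (24.9 CPM), and the estimate between these groups was 0.88 (0.18 to 1.58, FDR 0.0717), which became 1.13 and passed the test without CD4NIKΔ replicate 1 (FDR 0.0194).

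*Stat5b* had 2681, 753 and 1023 counts in CD4cre libraries, 368, 526, 321, 604 and 761 in CD4IKK1Δ libraries and 1512, 2330 and 2086 in CD4NIKΔ libraries. CD4cre replicate 1, at 103 CPM, stood within the CD4NIKΔ range of 83.5 to 147 CPM, while the other CD4cre libraries (36.7 and 51.3 CPM) were closer to the highest CD4IKK1Δ library (34.3 CPM). The CD4IKK1Δ libraries were 4.30-fold lower than those of CD4NIKΔ (log2 fold change −2.10, standard error 0.31, FDR 0.000295 from edgeR's test). Neither group differed from CD4cre past the threshold, with −1.25 (95% interval −1.95 to −0.55, FDR 0.111) for CD4IKK1Δ and 0.84 (−0.03 to 1.71, FDR 0.148) for CD4NIKΔ. Without CD4cre replicate 1 these were −0.71 and 1.37, and the latter passed the test (FDR 0.0319). The paralogs *Stat5a* and *Stat5b* share 840 stretches of 31 bases among their annotated transcripts, of 8580 and 7682 in all, and the division of reads between them by the authors' counting is uncertain to this extent.

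*Stat6* was barely detected, with 26, 17 and 3 counts in CD4cre libraries, 22, 65 and 22 in CD4NIKΔ libraries and 7 counts in CD4IKK1Δ replicate 4. It was listed at 0 in the other 4 CD4IKK1Δ libraries, where 3 counts would be 0.135 to 0.194 CPM. Every CD4NIKΔ library was above every CD4IKK1Δ library, with an estimate of −4.68 on the log2 scale (standard error 1.44, FDR 0.0197 from edgeR's test). Its size rests on a few counts, the gene was kept by the filter through the group in which it is higher, and the FDR was 0.0848 without CD4NIKΔ replicate 2, so that the difference is given as a description. Without CD4IKK1Δ replicate 4 all libraries of this group are at 0 and the fitted value was −8.27, which is no bound. *Stat6* did not pass the expression filter between CD4IKK1Δ and CD4cre, and the estimate from CD4cre to CD4NIKΔ was 1.56 (95% interval −0.49 to 3.62, FDR 0.242).

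Among the inhibitors, *Socs1* had 5458, 3260 and 2393 counts in CD4cre libraries, 94, 198, 465, 1168 and 1182 in CD4IKK1Δ libraries and 4103, 5770 and 4721 in CD4NIKΔ libraries. The means were 163 ± 45.1 CPM (SD, n = 3), 30.8 ± 24.0 CPM (SD, n = 5) and 281 ± 53.5 CPM (SD, n = 3), and the 3 groups did not overlap. *Socs1* was 9.11-fold lower in CD4IKK1Δ than in CD4NIKΔ libraries (log2 fold change −3.19, standard error 0.64, FDR 0.00305 from edgeR's test). The estimates against CD4cre were −2.40 for CD4IKK1Δ (95% interval −4.10 to −0.70, FDR 0.182) and 0.77 for CD4NIKΔ (0.22 to 1.33, FDR 0.0537). Without CD4cre replicate 1 or CD4NIKΔ replicate 1 the latter passed the threshold (FDR down to 0.0266).

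*Socs3* had 8253, 2543 and 2926 counts in CD4cre libraries, 33, 145, 385, 1383 and 1817 in CD4IKK1Δ libraries and 4070, 6495 and 5589 in CD4NIKΔ libraries. The CD4IKK1Δ values spread from 2.13 CPM in replicate 1 to 81.9 CPM in replicate 5, and the highest was still below the lowest CD4cre library (124 CPM). CD4cre replicate 1 (317 CPM) reached the CD4NIKΔ range of 225 to 395 CPM. The CD4IKK1Δ libraries were 8.57-fold below those of CD4NIKΔ (log2 fold change −3.10, standard error 0.94, FDR 0.0241 from edgeR's test), a call that was lost without CD4NIKΔ replicate 2 or 3 (FDR up to 0.0831). The estimates against CD4cre were −2.43 for CD4IKK1Δ (95% interval −5.02 to 0.17, FDR 0.331) and 0.66 for CD4NIKΔ (−0.17 to 1.49, FDR 0.223). Without CD4cre replicate 1 the latter was 1.19 and passed the test (FDR 0.0339).

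T cell transcripts differed between the groups in the same order as most of these genes, and *Jak2* was an exception, with its highest value in the library poorest in T cell transcripts. The summed level of the 15 Pan T markers (such as *Cd3e*, *Trac* and *Lck*) was 1600 to 3071 CPM in CD4cre libraries, 12.5 to 1370 CPM in CD4IKK1Δ libraries and 8408 to 12580 CPM in CD4NIKΔ libraries, with 4 of 15 markers at or under 3 counts in the poorest CD4IKK1Δ library and 0 in all CD4cre and CD4NIKΔ libraries. The 9 neuronal markers, which are not T cell genes, summed to 4128 to 4840 CPM, 5332 to 6171 CPM and 1313 to 2863 CPM in the same order, with 0 of 9 at or under 3 counts in any library. The sum of the B cell markers had the same order (67.6 to 140 CPM, 4.14 to 25.6 CPM and 194 to 663 CPM for 6 genes), and so had that of the NK and CD8 markers (18.5 to 43.5 CPM, 0.453 to 11.4 CPM and 125 to 195 CPM for 7 genes). Myeloid markers (15 genes) summed to 1297 to 2739 CPM, 1147 to 1414 CPM and 1000 to 1577 CPM, kidney tubule markers (11 genes) to 19.8 to 80.1 CPM, 5.04 to 11.4 CPM and 14.4 to 112 CPM, and endothelial markers (6 genes) to 178 to 196 CPM, 191 to 236 CPM and 98.6 to 126 CPM. The B cell sum was almost all *Ighm* (means of 99.5, 11.1 and 492 CPM), while *Cd79b* had 2.17, 0.063 and 5.93 CPM, up to 4 of the 6 genes were at or under 3 counts in a library, and 1 of 3 tested rose from CD4cre to CD4NIKΔ. Among the endothelial genes *Plvap* (97.8, 111 and 39.5 CPM) and *Egfl7* (72.8, 85.4 and 34.4 CPM) made up most of the sum and were higher in CD4IKK1Δ than in CD4NIKΔ libraries, whereas *Pecam1* (13.5, 10.1 and 33.5 CPM) was lower there (−1.72, FDR 0.00108 from edgeR's test), with a list median of −1.17 over 5 genes tested. The myeloid sum was carried by *Cst3*, a cystatin made by many cell types, with means of 873, 1099 and 500 CPM, whereas the macrophage genes *Lyz2* (190, 7.93 and 258 CPM) and *C1qb* (326, 46.3 and 180 CPM) were lowest in CD4IKK1Δ libraries. Of the myeloid genes tested, 9 of 11 had lower estimates in CD4IKK1Δ than in CD4cre libraries (median −1.91, 0 called by edgeR's test), and 6 of 12 were lower and 1 was higher in CD4IKK1Δ than in CD4NIKΔ libraries. Neutrophil markers (7 genes) stayed at 5.54 CPM or less in every library. Erythroid markers (6 genes) summed to 2082 to 2683 CPM in CD4cre, 532 to 1614 CPM in CD4IKK1Δ and 1178 to 8191 CPM in CD4NIKΔ libraries, so that all CD4IKK1Δ libraries were below all CD4cre libraries, as for 5 of the members. Of these genes 5 of 6 had lower estimates in CD4IKK1Δ than in CD4cre libraries (median −1.40, 0 called), and 4 of 6 were lower in CD4IKK1Δ than in CD4NIKΔ libraries by edgeR's test. The part of other cells in the member values was not tested.

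**Figure D3:**
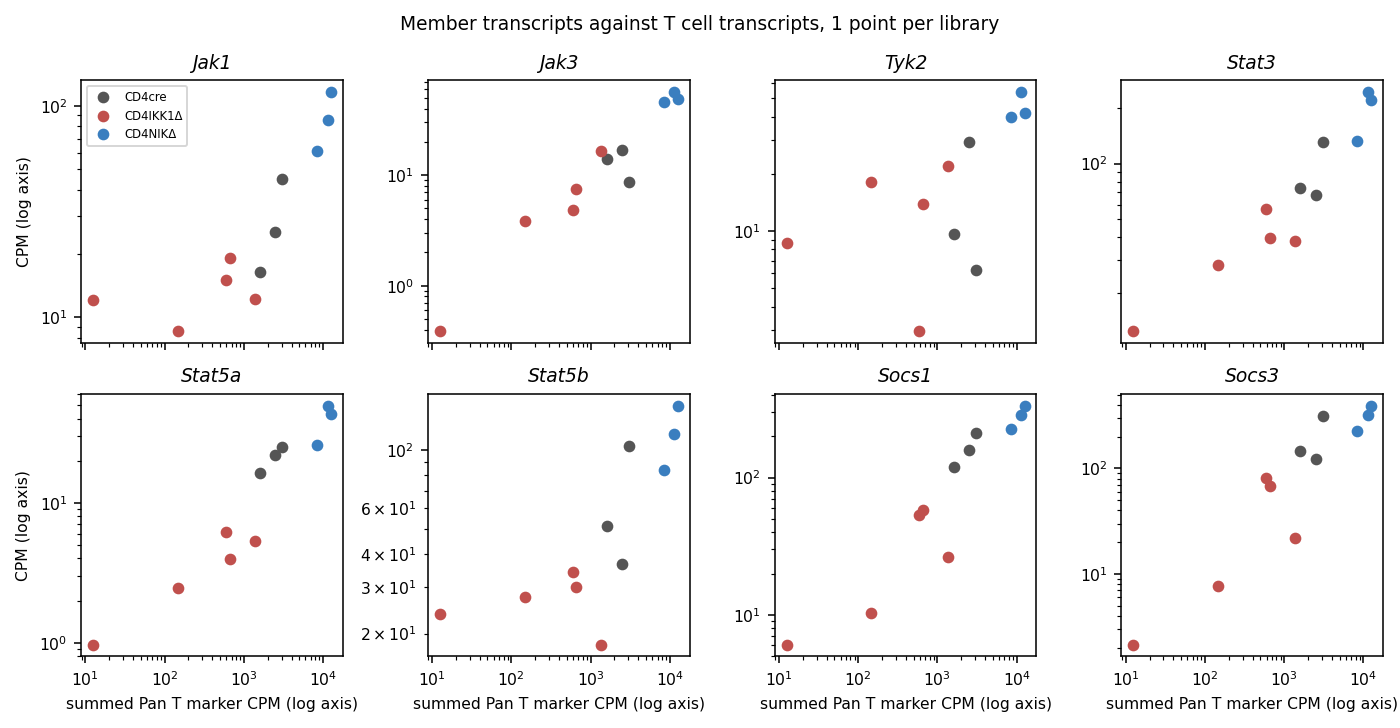
CPM of 8 members (log axis) against the summed CPM of the 15 Pan T markers (log axis), 1 point per library and coloured by group. The CD4NIKΔ libraries lie at the upper right of the panels, and within the CD4IKK1Δ group *Jak1* and *Stat5b* lie between 8.59 and 34.3 CPM over a range of Pan T transcripts from 12.5 to 1370 CPM. In that group *Jak3* ranged from 0.388 to 16.5 CPM, *Tyk2* from 2.98 to 22.0 CPM and *Stat3* from 12.4 to 56.5 CPM. *Stat5a* ranged from 0.970 to 6.22 CPM, *Socs1* from 6.08 to 58.1 CPM and *Socs3* from 2.13 to 81.9 CPM. All of these but *Tyk2* were lowest in the library poorest in Pan T transcripts.

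Per 1000 Pan T counts, *Socs1* had 63.5 to 75.0 counts in CD4cre libraries and 24.9 to 26.9 counts in CD4NIKΔ libraries, whereas CD4IKK1Δ libraries ranged from 19.2 to 489 counts. *Stat5a* had 8.10 to 10.3 counts per 1000 in CD4cre libraries, 3.08 to 4.33 in CD4NIKΔ libraries and 3.88 to 77.1 in CD4IKK1Δ libraries. On this scale the CD4NIKΔ libraries lay below the CD4cre libraries for both genes, the reverse of their order in CPM. With libraries scaled to the Pan T counts in edgeR, all 9 members tested had lower estimates in CD4NIKΔ than in CD4cre libraries and 5 passed the threshold, beside 70.1% of all genes called lower, from −1.08 for *Stat3* to −1.51 for *Socs3*, where the median of all genes shifted to −2.24. Between CD4IKK1Δ and CD4cre the same scaling put all 9 members tested above 0 with 0 calls, as over all genes (0.0%), from 0.23 for *Socs3* to 13.2 for *Jak2*, where the median of all genes was 5.25. This scaling moves all genes of a library alike. Relative to the shifted median, the 9 members were above it between CD4NIKΔ and CD4cre, by 0.73 to 1.87, and between CD4IKK1Δ and CD4cre 8 were below it and *Jak2* above. These positions largely follow from the estimates before scaling, because a shift of all genes cancels out. They are therefore no test of the members at equal T cell content. Between CD4IKK1Δ and CD4NIKΔ the median of all genes became 7.45, and 5 members were called higher, beside 86.3% of all genes, of which *Jak1*, *Tyk2*, *Stat3* and *Stat5b* had estimates of 3.90 to 5.38 and thus below that median, and *Jak2* one of 8.85 above it. CD4IKK1Δ replicate 1 had 192 Pan T counts in all, and without it the scaling gave *Socs1* and *Socs3* −0.045 and −0.073, *Jak1* 1.37 and *Tyk2* 2.64 against CD4cre, with *Tyk2* as the 1 member called (FDR 0.0369), beside 49.3% of all genes called higher.

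The comparison of CD4IKK1Δ with CD4NIKΔ was repeated with the 3 CD4IKK1Δ libraries richest in T cell receptor counts (replicates 3, 4 and 5), an alternative chosen after seeing the data. It called 7 members as lower in place of 9, beside 19.7% of 16190 genes, without *Tyk2* and *Stat6*, with log2 fold changes of −2.50 for *Jak1*, −2.38 for *Jak3*, −2.15 for *Stat3*, −2.92 for *Stat5a*, −2.06 for *Stat5b*, −2.61 for *Socs1* and −2.44 for *Socs3*. Against CD4cre, these 3 libraries gave −2.03 for *Stat5a*, −1.83 for *Socs1* and −1.77 for *Socs3*, and 0 members were called, beside 0.245% of all genes.

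Ratios of 2 members within a library do not depend on the depth of the library but can depend on the mix of its cells. Of these, 6 ratios were compared between the groups by exact two-sided permutation tests (18 tests, of which the smallest possible p is 0.0357 for 3 against 5 libraries and 0.1 for 3 against 3). Since the adjusted p could not go below 0.0536 over these 18 tests, none could pass 0.05, and the smallest unadjusted p found was 0.0714. The log2 ratio of *Stat5a* to *Stat5b* counts was −1.48 ± 0.67 in CD4cre (SD, n = 3), −3.04 ± 1.07 in CD4IKK1Δ (SD, n = 5) and −1.56 ± 0.30 in CD4NIKΔ libraries (SD, n = 3). The difference between CD4IKK1Δ and CD4cre was −1.57, with overlap of the groups (exact permutation p = 0.0714, adjusted 0.429). CD4IKK1Δ replicates 1 and 2, which held few T cell transcripts, had the lowest values, −4.59 and −3.48. Replicates 3, 4 and 5 had −1.77, −2.92 and −2.46. The part of other cells in these ratios was not tested. The ratio of *Socs1* to *Socs3* was −0.18 ± 0.49, 0.27 ± 0.80 and −0.13 ± 0.13 (SD, n = 3, 5 and 3), with no p under 0.464 between any 2 groups by exact permutation. *Jak3* and *Jak1*, which work together at common gamma chain receptors, had log2 ratios of −1.06 ± 1.16, −1.71 ± 1.93 and −0.75 ± 0.44 in the same order. Within CD4IKK1Δ this ratio ran from −4.84 in replicate 1 to 0.43 in replicate 3.

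**Figure D4:**
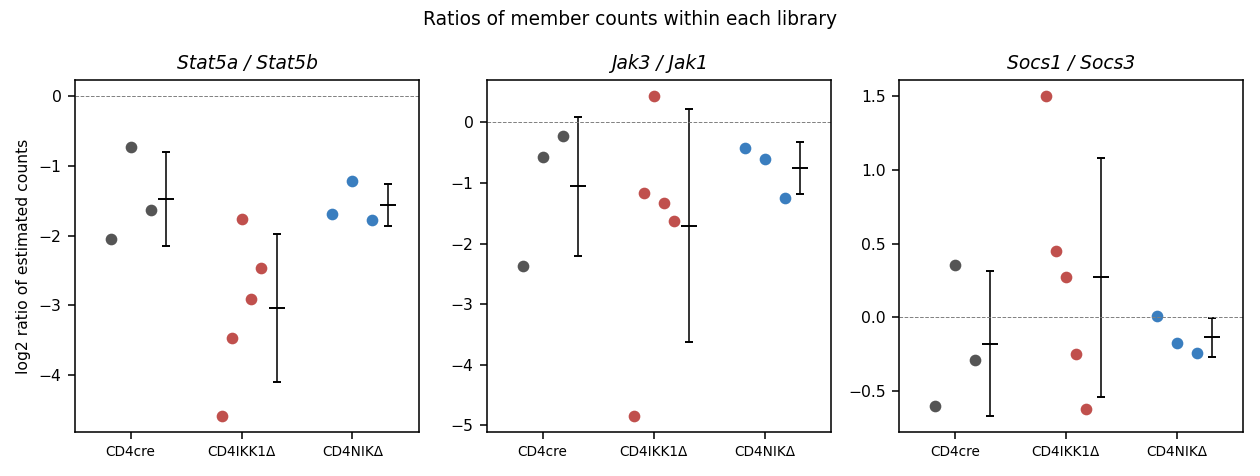
Log2 ratios of the estimated counts of 2 genes within each library (points), with group means and SD in black. The groups overlap in all 3 panels, and the CD4NIKΔ libraries are the closest together, with SDs of 0.30, 0.44 and 0.13.

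Other genes of the pathway were counted from hand-written lists of 78 genes. Between CD4IKK1Δ and CD4cre 0 of 71 tested passed the threshold, with 59 lower and 12 higher estimates and at an unadjusted p under 0.05, 26 were lower, beside 8.91% of all genes, and 1 was higher (edgeR's quasi-likelihood test). From CD4cre to CD4NIKΔ, 37 of 72 rose and 4 fell, beside the 12.1% of all genes that rose and the 21.1% called in either direction, and 55 of 73 were lower and 3 higher in CD4IKK1Δ than in CD4NIKΔ libraries, beside the 22.0% and 20.2% of all genes that were lower and higher there. These counts are given as a description.

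Receptors with the common gamma chain or its partners were lower in CD4IKK1Δ than in CD4NIKΔ libraries in 8 of 8 genes, with a median of −4.06. *Il2rb*, the signalling chain of the IL-2 and IL-15 receptors, had means of 172, 29.8 and 559 CPM in CD4cre, CD4IKK1Δ and CD4NIKΔ libraries (log2 fold change −4.23 between the latter, FDR 0.00258 from edgeR's test). *Il2ra*, the high-affinity IL-2 receptor chain, had 12.5, 1.00 and 31.9 CPM, and the estimate between CD4IKK1Δ and CD4cre was −3.64 (FDR 0.0551, with an adjusted p of 6.81e-07 from DESeq2). The common gamma chain *Il2rg* rose by 3.01 on the log2 scale from CD4cre to CD4NIKΔ (FDR 0.0096), and 5 of 8 genes of the list rose there. *Il4ra* and *Il7r*, the receptor chains for IL-4 and IL-7, were lower in CD4IKK1Δ than in CD4NIKΔ libraries (−2.87 and −3.90, FDR 0.030 and 0.0184) and had FDRs of 0.663 and 0.0757 between CD4NIKΔ and CD4cre. Of the 8 gp130 and IL-10 receptors only 3 were lower in CD4IKK1Δ than in CD4NIKΔ libraries and 5 were not called, among them *Il6st*, the shared gp130 chain, with 11.4 and 12.2 CPM (−0.09, FDR 0.901). In that list *Il27ra* (−4.90, FDR 0.0046) and *Il6ra* (−2.02, FDR 0.0116) were lower, whereas *Lifr* had an estimate of 0.94 (FDR 0.0529). Of the 7 IL-12 and interferon receptors 6 were lower and 1 was higher, *Ifngr2*, which opposed *Ifngr1*, the other chain of the same receptor (0.73, FDR 0.00106, and −4.12, FDR 0.000455). *Ifnar2*, a chain of the type I interferon receptor, was lower (−2.10, FDR 7.64e-05).

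Among the ligands, 8 of 13 tested were lower in CD4IKK1Δ than in CD4NIKΔ libraries. *Ifng*, the Th1 cytokine, had means of 203, 24.6 and 905 CPM in CD4cre, CD4IKK1Δ and CD4NIKΔ libraries, and it rose from CD4cre to CD4NIKΔ by 2.15 on the log2 scale (FDR 0.0165 from edgeR's test). *Il22*, a cytokine of Th17 and Th22 cells, rose there by 2.83 (FDR 0.0324), and *Il4* had an estimate of 1.00 (FDR 0.467). *Il4* was lower in CD4IKK1Δ than in CD4NIKΔ libraries (−2.98, FDR 0.0173), and *Il22* had an estimate of −3.76 there (FDR 0.0745).

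Of the other STAT factors, *Stat4*, the factor of the IL-12 receptor, rose by 2.64 on the log2 scale from CD4cre to CD4NIKΔ (FDR 0.00752 from edgeR's test), and *Irf9*, an interferon signalling partner of STAT proteins, rose by 2.96 (FDR 0.00255). Both were lower in CD4IKK1Δ than in CD4NIKΔ libraries (−4.72, FDR 0.00631, and −4.36, FDR 0.000528). Of 18 STAT target genes, 17 were lower in CD4IKK1Δ than in CD4NIKΔ libraries and 10 rose from CD4cre to CD4NIKΔ. Over all genes these shares were 22.0% and 12.1%, and of the 15 Pan T markers 14 were lower and 14 rose. *Cish*, a STAT5 target and SOCS family inhibitor, had 114, 25.4 and 421 CPM, rose by 1.87 from CD4cre to CD4NIKΔ (FDR 0.0023) and was lower in CD4IKK1Δ than in CD4NIKΔ libraries (−4.05, FDR 0.00086). *Junb*, with 3783, 478 and 7100 CPM, was lower in the latter comparison (−3.89, FDR 0.00181), as were the survival gene *Bcl2* (−3.18, FDR 0.00126) and the cyclin *Ccnd2* (−1.29, FDR 0.000424).

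The remaining SOCS genes moved in both directions. *Socs5* was higher in CD4IKK1Δ than in CD4NIKΔ libraries by 1.35 on the log2 scale (102 and 40.2 CPM, FDR 0.000147 from edgeR's test) and *Socs7* by 1.38 (89.5 and 34.3 CPM, FDR 0.000248), while 4 others, *Cish* and *Socs2* among them, were lower (*Socs2* −1.22, FDR 0.00331). Both also fell from CD4cre to CD4NIKΔ (−1.03 for *Socs5* and −0.93 for *Socs7*, FDR 0.0242 and 0.0375). They were the only genes of the 6 to take the direction of the neuronal markers, of which 9 of 9 were higher in CD4IKK1Δ than in CD4NIKΔ libraries. Of the PIAS proteins, which inhibit DNA binding of STATs, 2 of 4 were lower in CD4IKK1Δ than in CD4NIKΔ libraries, *Pias1* (−0.95, FDR 0.00177) and *Pias4* (−1.45, FDR 0.0159), and *Pias2* had an estimate of −0.57 (FDR 0.0981). Of the 10 phosphatases and adaptors, 8 were lower, with the leukocyte phosphatase *Ptprc* (CD45) at −4.10 (FDR 0.000186) and *Ptpn1* at −1.56 (FDR 0.000171), while *Ptpn11* (SHP2) had an estimate of 0.32 (FDR 0.0558).

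The genes most like each member were sought by Pearson's r of log2 CPM over the 11 libraries, among 8561 genes with a mean of at least 10 CPM. Such an r is a description, since all genes of a library share its depth and its content of T cell RNA. *Socs3* was closest to *Klf2* (r = 0.997), a factor of quiescent T cells, and *Socs1* to *Vps37b* (0.993), *1700017B05Rik* (0.991) and *Ier2* (0.989). *Jak3* was closest to *Nkg7* (0.993), a cytotoxic granule gene. *Jak1* and *Stat5b* both had *Foxp1* among their first 3 (0.984 and 0.972), and *Stat3* was closest to *Clk1* (0.990). *Tyk2* had *Il12rb1*, a receptor chain it binds, in the third place (0.899). The value for *Jak2* did not exceed 0.830 (*Rfesd*).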

How the data were processed

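The libraries held RNA of CD4+ T cells sorted from kidneys 2 days after IRI, from 3 CD4cre, 5 CD4IKK1Δ and 3 CD4NIKΔ mice, grouped by the titles in the labels. The authors trimmed reads with Trimmomatic, assigned them with kallisto (version and annotation not given in the sources used here) and deposited estimated counts per gene symbol, without normalization. Study methods name the assembly GRCm39 and the submitters' processing notes name mm10, and the table holds no coordinates. kallisto divides shared reads among transcripts, which left 57.4% to 61.5% of a library's values above 0 more than 0.01 from a whole number. Values were rounded, filtered by expression, normalised by TMM and tested by edgeR's quasi-likelihood test (version 4.0.16, under R 4.3.3), with the FDR adjusted over all genes tested by Benjamini-Hochberg (threshold 0.05). Comparisons with CD4cre used their own groups, and CD4IKK1Δ against CD4NIKΔ used all 11 libraries. Standard errors were taken from the F statistic. Ratios used counts plus 0.5 and exact permutation tests (scipy 1.17.1). The edgeR test was checked on simulated data in which 200 genes changed by 2 on the log2 scale. It called 63.5% of them between CD4IKK1Δ and CD4cre, 78.0% between CD4NIKΔ and CD4cre and 63.0% between CD4IKK1Δ and CD4NIKΔ. False calls numbered 2, 11 and 0 in the same order. Coordinates are of GENCODE's mouse annotation on GRCm39. Alternatives were DESeq2 (1.42.0), RLE or no normalization factors, a looser (1 count in any library) and a stricter expression filter (10 counts in every library), a fit on all 11 libraries, the replicate number as a block, scaling to Pan T counts and leaving out each library. Named pathway genes are the 3 of each list with the highest mean CPM plus 9 named by hand, of which 1 is not reported here. The members and lists were chosen with earlier results of these data known. The labels number the libraries as biological replicates, the study gives 3, 5 and 3 mice, and 0 of 55 pairs of libraries were identical.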

Additional observations from a re-analysis of the deposited data

Results flagged for a closer look

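*Stat6* in CD4IKK1Δ libraries was flagged because 1 of the 5 libraries stood apart from the rest. Replicate 4 had 7 counts (0.348 CPM) and the other 4 were listed at 0. The gap to the nearest library is 1.0 of the whole range, a ratio that 4 values tied at 0 give whatever the other value is, so that Dixon's critical value of 0.71 for 5 libraries says nothing about the size of this one. In all, 16 groups of values were looked at in this way.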

How the results depend on the processing

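For the log2 fold changes of single genes, 361 alternative values kept direction and side of the threshold, 48 changed direction (39 of them with Pan T scaling, which shifts the median of all genes), 25 passed and 23 fell below the threshold. Members called between CD4IKK1Δ and CD4cre (0) became 5 with DESeq2, 2 with the filter of 10 counts in every library, and 1 with all 11 libraries (*Stat5a*, lower) or with Pan T scaling without replicate 1 (*Tyk2*, higher), and genes called (0) became 1014 (DESeq2), 1 (RLE factors), 60 (filter of 1 count), 227 (filter of 10 counts), 132 (all 11 libraries), 3 (replicate block), 7609 (Pan T scaling without replicate 1), 37 (3 CD4IKK1Δ libraries richest in T cell receptor counts) and 0 to 25 without single libraries. Members called between CD4NIKΔ and CD4cre (3) became 6 with DESeq2 or the filter of 10 counts, 1 with all 11 libraries (*Jak1*), 5 lower with Pan T scaling and 1 to 6 without single libraries (1 without CD4cre replicate 3 or CD4NIKΔ replicate 2 or 3, 6 without CD4cre replicate 1, 5 without CD4NIKΔ replicate 1), and genes called (3208) became 5068 (DESeq2), 1187 (replicate block), 10774 (Pan T scaling) and 692 to 4245 without single libraries. Members called between CD4IKK1Δ and CD4NIKΔ (9, lower) became 5 with Pan T scaling, with or without replicate 1, all above 0 (*Jak1*, *Jak2*, *Tyk2*, *Stat3* and *Stat5b*), where the median of all genes was 7.45 with replicate 1 and all of these but *Jak2* lay below it, and genes called (6987) became 14330 and 13799. With TMM factors and without single libraries, 6 to 9 members and 5241 to 6775 genes were called in this comparison. Without CD4NIKΔ replicate 2 the calls of *Tyk2*, *Stat6* and *Socs3* were lost. Pan T scaling turned *Jak1*, *Jak3*, *Tyk2*, *Stat3*, *Stat5a*, *Stat5b*, *Socs1* and *Socs3* to 4.21, 1.51, 4.69, 2.82, 1.28, 4.04, 1.12 and 0.23 between CD4IKK1Δ and CD4cre, and to 4.75, 1.87, 5.32, 3.90, 2.59, 5.38, 2.52 and 1.74 between CD4IKK1Δ and CD4NIKΔ. Without replicate 1 the same scaling gave *Jak1*, *Jak3*, *Tyk2*, *Stat3*, *Stat5a* and *Stat5b* 1.37, 1.23, 2.64, 1.28, 0.024 and 1.501 against CD4cre, with *Socs1* at −0.045 and *Socs3* at −0.073, and these genes with *Socs1* and *Socs3* 1.92, 1.59, 3.27, 2.36, 1.35, 2.84, 1.36 and 1.43 against CD4NIKΔ, where the median of all genes moved to 2.56 and 4.78. Between CD4NIKΔ and CD4cre it turned *Jak1*, *Jak3*, *Tyk2*, *Stat3*, *Stat5a*, *Stat5b*, *Stat6*, *Socs1* and *Socs3* to −0.55, −0.36, −0.63, −1.08, −1.33, −1.34, −0.47, −1.40 and −1.51. *Tyk2* between CD4IKK1Δ and CD4cre became 0.33 with the replicate block, 0.73 without CD4cre replicate 2 and 0.055 without CD4IKK1Δ replicate 5 (−0.57 to 0.73 without single libraries). *Jak2* between CD4IKK1Δ and CD4NIKΔ became −1.94 with the block, −0.63 and −0.094 without CD4IKK1Δ replicates 1 and 4, −0.18 and −0.36 without CD4NIKΔ replicates 2 and 3 (−0.63 to 2.69 without single libraries), and −0.22 with the 3 libraries. The cause was not tested. Same-numbered libraries did not deviate together (r from −0.089 to 0.077), so that the numbers give no pairing, and the block called 0, 2 and 9 members. Estimates between CD4IKK1Δ and CD4cre moved with the block to −4.49 for *Socs3*, −3.74 for *Socs1*, −3.12 for *Stat5a* and −2.03 for *Jak3*. Those of *Stat3*, *Stat5b*, *Jak1* and *Jak2* were −1.83, −1.35, −1.30 and 5.80. Pan T scaling without replicate 1 and the 3-library choice were added after seeing the data. Values at or near 0 in many libraries limit *Jak2* and *Stat6*, and amplification before sequencing adds error that counts do not show.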
